A study of Mus musculus with 150 samples.

Results

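The genes described here are those of the extracellular matrix and of the enzymes that cut it: collagens (symbols in Col with a chain number), laminin chains (Lama, Lamb and Lamc), fibrillins and fibulins (Fbn and Fbln), matrix metalloproteases (Mmp) and their tissue inhibitors (Timp). They were taken by gene symbol, and these gene families were chosen with earlier results of these data known. In all, 86 of the 12422 probe sets on the array that are not controls carried such a symbol, and they stand for 59 of 8251 genes. Of these genes, 39 had 1 probe set and 20 had several, with up to 5 for Col18a1. A probe set is a group of short oligonucleotides on the array that reads 1 transcript.

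Total RNA of adult wild-type inbred mice, labelled with biotin, was hybridised to 150 arrays of the 1-colour kind. There were 100 arrays of 24 neural tissues from the strains 129 (44 arrays), B6 (47 arrays) and DBA (9 arrays), and 50 arrays of 10 body tissues, with 1 array of each of the strains 129, B6, AJ, C3H and DBA per tissue. The neural tissues were 21 dissected parts of brain and spinal cord together with the pituitary, the choroid plexus and the retina. The body tissues were adrenal, brown adipose tissue, heart, kidney, liver, muscle, spleen, testes, thymus and white adipose tissue. No group carried a treatment or an engineered allele, and the labels give neither sex nor an age in days. The retina was taken from B6 alone, no 129 array covered the motor cortex, and no B6 array covered the entorhinal or the perirhinal cortex. The labels do not say that arrays of a tissue came from separate animals, and some titles join sample numbers with a plus sign. For neural against body tissue, the p-values measure the spread between tissue means. The other p-values therefore measure the spread between these arrays that is left after tissue and strain. In body tissues the arrays of a tissue are of different strains.

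One 129 hippocampus array (replicate 1) and one DBA perirhinal array (replicate 2) had the same value at every probe set, so neither was used, leaving 148 arrays, 98 of them neural and 3 to 7 per neural tissue. The 75th percentile of intensity lay between 165 and 184 on every array, the median between 38.4 and 68.1, and the ratio of the 3' to the 5' Gapdh control between 0.748 and 1.41. Defining genes of the labelled tissues were highest in them, such as Alb (13.81 on the log2 scale) in liver and Ttr (13.95) in choroid plexus. The adrenal arrays also held the brown fat genes Ucp1 (11.16) and Cidea (11.54), and their part in the adrenal results was not tested. Adipoq was about as high in brown (12.50) as in white (12.47) adipose tissue. These are whole tissues, so fewer cells of a type and less RNA per cell cannot be told apart.

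The extracellular matrix is the scaffold that cells secrete around themselves. Fibril-forming collagens (types I, III and V) give tendon, dermis and the interstitium their tensile strength and are made mainly by fibroblasts, while collagen IV and the laminins build the basement membrane, the thin sheet under epithelia and around vessels, muscle fibres and fat cells. Brain parenchyma is known for a matrix of proteoglycans and hyaluronan with few collagen fibrils outside vessels and meninges. Matrix metalloproteases cut these proteins, and the Timp proteins inhibit the metalloproteases.

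Upstream sequence was available from RefSeq (build GRCm38.p6) for 41 of the 59 genes, with 48 transcription starts between them. The first set shows the 250 bases before the start of some collagen genes with large differences between tissues in the results that follow. They are Col1a2, Col3a1, Col8a1, and both starts of Col18a1. These genes were chosen by name and not by a ranking. Capitals mark a CCAAT box (CCAAT), a GC box (GGGCGG) or a TATA box (TATAAA) on either strand, and every sequence reads 5′ to 3′ along its gene. Col1a2 lies on the plus strand at chr6:4505368-4505617, Col3a1 on the plus strand at chr1:45311288-45311537, and Col8a1 on the minus strand at chr16:57754738-57754987. For Col18a1, on the minus strand, the upstream start is preceded by chr10:77166531-77166780 and the downstream start by chr10:77113706-77113955.
Col1a2: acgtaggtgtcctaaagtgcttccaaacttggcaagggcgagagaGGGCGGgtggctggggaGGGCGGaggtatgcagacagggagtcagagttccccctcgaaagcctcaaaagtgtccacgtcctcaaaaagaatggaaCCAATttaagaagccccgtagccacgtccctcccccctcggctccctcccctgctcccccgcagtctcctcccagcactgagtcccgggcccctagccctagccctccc
Col3a1: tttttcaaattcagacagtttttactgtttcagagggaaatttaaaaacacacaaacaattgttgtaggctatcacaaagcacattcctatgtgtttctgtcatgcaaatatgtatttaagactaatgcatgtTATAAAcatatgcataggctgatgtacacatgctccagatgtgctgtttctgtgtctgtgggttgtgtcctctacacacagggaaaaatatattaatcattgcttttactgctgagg
Col8a1: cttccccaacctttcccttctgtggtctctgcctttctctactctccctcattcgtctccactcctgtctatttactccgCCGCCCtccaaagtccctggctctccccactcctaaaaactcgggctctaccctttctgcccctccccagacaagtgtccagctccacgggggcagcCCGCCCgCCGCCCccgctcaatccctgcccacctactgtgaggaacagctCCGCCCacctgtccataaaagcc
Col18a1, upstream start: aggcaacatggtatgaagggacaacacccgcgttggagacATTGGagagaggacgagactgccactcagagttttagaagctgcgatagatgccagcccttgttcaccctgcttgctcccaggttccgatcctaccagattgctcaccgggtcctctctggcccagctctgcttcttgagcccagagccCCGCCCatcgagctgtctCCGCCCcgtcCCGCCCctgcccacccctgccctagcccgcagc
Col18a1, downstream start: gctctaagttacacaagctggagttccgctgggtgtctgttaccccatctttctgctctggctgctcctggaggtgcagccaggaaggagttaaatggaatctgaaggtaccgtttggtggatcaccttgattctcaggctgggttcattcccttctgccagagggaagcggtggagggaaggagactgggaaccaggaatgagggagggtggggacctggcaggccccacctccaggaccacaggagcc

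The window of Col1a2 held 1 CCAAT box and 2 GC boxes, that of Col3a1 held 1 TATA box, and that of Col8a1 held 4 GC boxes. The windows of Col1a2 and Col3a1, both fibrillar collagen genes of fibroblasts, shared none of the motifs searched. Col18a1 is known to be transcribed from an upstream and a downstream start, and the windows differed: the upstream one held 1 CCAAT box and 3 GC boxes, and the downstream one held none of these letters. Over all 32851 starts in the table, 33.8% had a CCAAT box in this window, 32.7% a GC box and 12.4% a TATA box; the members had them at 15, 22 and 9 of 48 starts. A match of letters is a description and not a site in use.

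The second set shows 40 bases of the metalloprotease cluster on chromosome 9, with capitals for the letters TGANTCA, the AP-1 motif, searched on both strands with N for any base. This motif stood in the 250-base window of 6 of 48 member starts (6.75% of all starts), those of Col6a1, Mmp3, Mmp7, Mmp10, Mmp12 and Mmp13. The stretches lie on the plus strand at chr9:7272462-7272501 (Mmp13), chr9:7347313-7347352 (the second listed start of Mmp12), chr9:7445759-7445798 (Mmp3) and chr9:7502262-7502301 (Mmp10).
Mmp13: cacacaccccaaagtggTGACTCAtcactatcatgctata
Mmp12: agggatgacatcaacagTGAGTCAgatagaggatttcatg
Mmp3: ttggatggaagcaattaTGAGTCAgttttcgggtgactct
Mmp10: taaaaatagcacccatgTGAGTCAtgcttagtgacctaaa

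Col4a1 and Col4a2, the chains of the common collagen IV trimer, are transcribed in opposite directions from starts that lie 21 bases apart. The 30 bases around them, at chr8:11312801-11312830 on the plus strand, are shown with the 2 start bases in capitals, since the levels of these genes are compared over tissues in the results.
Col4a1 and Col4a2: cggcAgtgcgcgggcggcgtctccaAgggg

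Of the matrix probe sets that differed between neural and body tissue, more were lower than higher in neural tissue, and the fibril-forming collagens had the lowest median difference of the roles. A difference was called when its adjusted p from limma was under 0.05 and it was at least 1 on the log2 scale, which is 2-fold. Intensities under 10.4 were raised to that floor (3.38 on the log2 scale), and a probe set was tested if its mean passed 5.73 in at least 1 tissue. Differences of dim genes are therefore understated. A gene is described by its probe set of highest mean intensity unless another is named. Among the 58 member probe sets tested, standing for 43 genes, 25 were lower in neural tissue and 3 were higher, against 13.6% lower and 14.1% higher of all 9743 probe sets tested. The median member difference, neural minus body, was −0.83 on the log2 scale, and over all probe sets it was −0.07. With the pituitary, choroid plexus and retina set aside, 26 members were lower and 3 higher in brain and cord (14.9% and 15.3% of all), with a median of −0.88 against −0.10.

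Col1a1 and Col1a2 encode the chains of type I collagen, the main protein of tendon, dermis and bone. Intensities of Col1a1 in muscle were 4139 in 129, 4713 in AJ, 10516 in B6, 3099 in C3H and 5957 in DBA. On the 4 retina arrays they were −7.54, 0.83, 10.1 and 1.85, all under the floor. Every muscle array thus lay above every array of liver, kidney, spinal cord or retina. The strain-adjusted means of the 24 neural tissues averaged 5.62 (log2) and those of the 10 body tissues 9.14, a difference of −3.52 ± 0.55 (SE; adjusted p = 1.90e-06). The ranges overlapped, since neural means reached 8.50 (spinal cord) and body means went down to 5.64 (liver).

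Col3a1, the collagen of reticular fibres, was lower in neural tissue by the largest amount, −3.59 ± 0.38 on the log2 scale (adjusted p = 1.09e-09), or 12.0-fold. In white adipose tissue its intensities were 1606 in AJ, 1806 in B6, 2382 in 129, 1963 in DBA and 1676 in C3H. In spinal cord, the highest neural tissue for Col3a1, they were 172 and 118 in 129 and 119 and 184 in B6. Col1a2 was lower by −3.35 ± 0.60 (adjusted p = 1.73e-05) with its brighter probe set 101130_at, while its other probe set 161156_r_at did not pass the test (0.25 ± 0.13, adjusted p = 0.109). Col5a2, a chain of the type V collagen that nucleates type I fibrils, was lower by −2.22 ± 0.41 (adjusted p = 2.22e-05). Of the 10 probe sets tested for fibril-forming collagens, 8 were lower, with a median of −2.05. Col5a1 was divided: 101080_at was called lower (−1.84) and the brighter 93472_at was under 2-fold (−0.61).

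**Figure D1:**
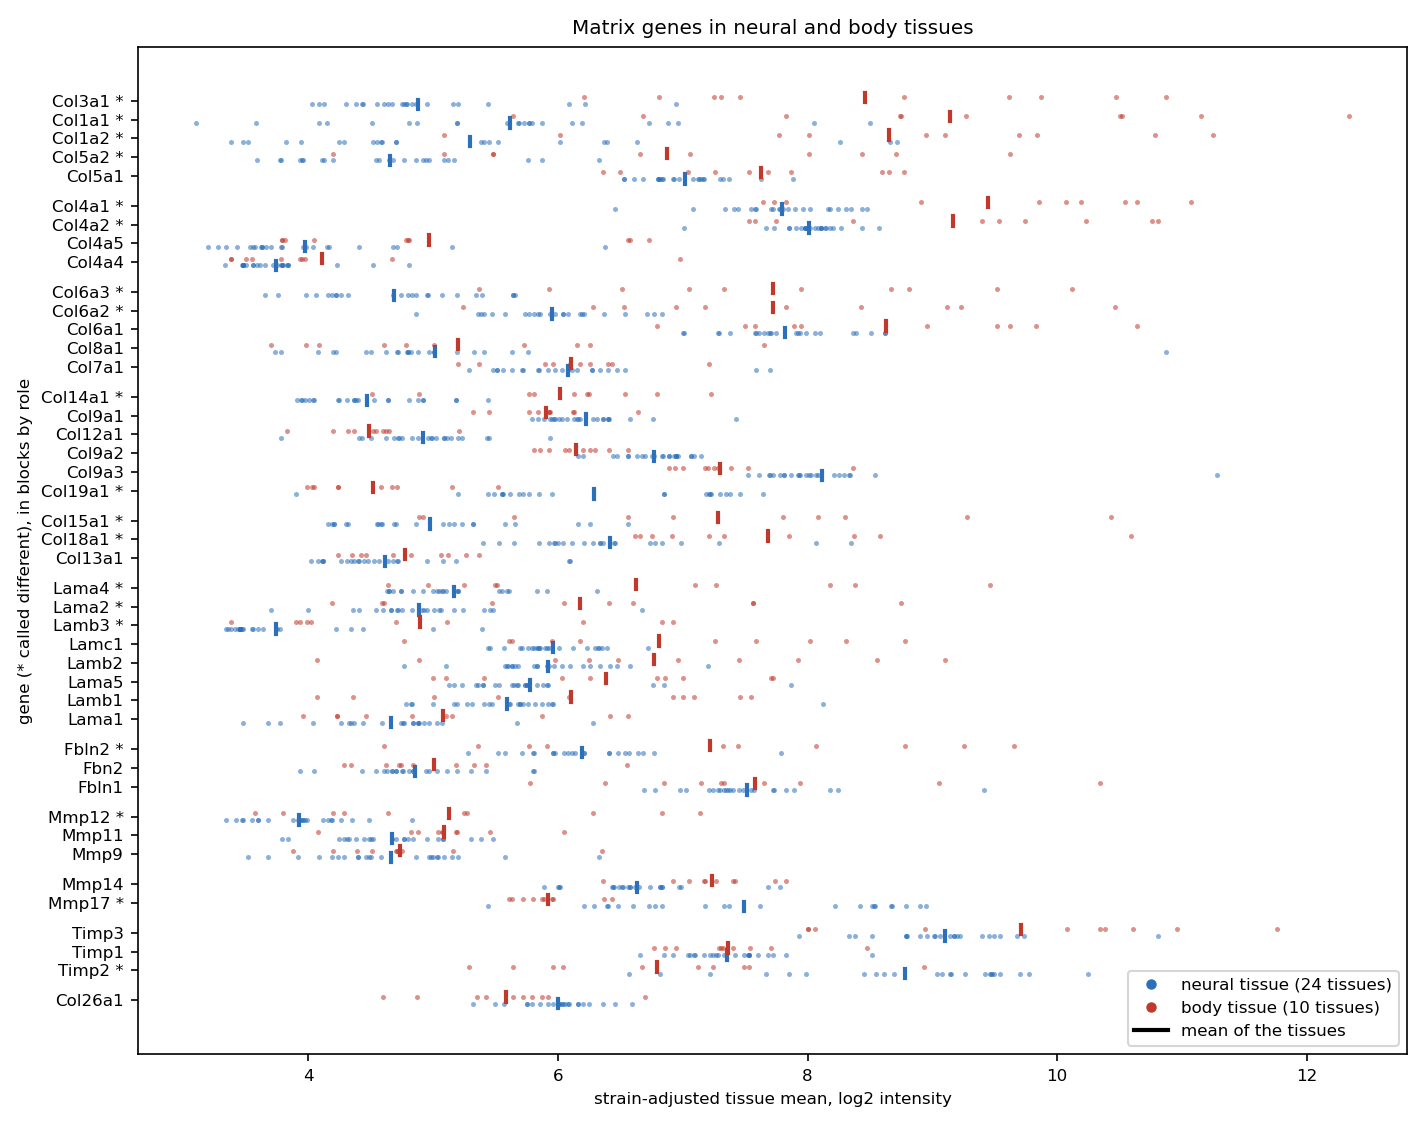
Strain-adjusted mean log2 intensity of each tested member gene in the 24 neural tissues (blue points) and the 10 body tissues (red points), in blocks by role; upright bars are the mean over the tissues of a system, and an asterisk marks a called difference. The bars lie farthest apart for Col3a1 (4.88 neural and 8.46 body), and blue lies to the right of red for Timp2, Col19a1 and Mmp17 among the called genes.

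The network collagens moved the same way for type VI, which forms beaded microfibrils around cells. Col6a3 was lower in neural tissue by −3.04 ± 0.35 (adjusted p = 7.08e-09). Its intensities in white adipose tissue were 1179 in AJ, 1059 in B6, 1419 in 129, 884 in DBA and 1080 in C3H, and in motor cortex they ran from 10.3 to 22.0. Col6a2 was lower by 3.40-fold (−1.77, adjusted p = 4.63e-05). Col6a1 was called by the dimmer probe set 162459_f_at (−1.80) and not by the brighter 95493_at (−0.81). Col7a1, the anchoring fibril collagen (−0.02, adjusted p = 0.944), and Col8a1 (−0.18, adjusted p = 0.756) did not pass the test.

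For basement membranes, Col4a1 (−1.65 ± 0.29, adjusted p = 1.28e-05) and Col4a2 (−1.15 ± 0.26, adjusted p = 0.000398) were lower in neural tissue, and these were 2 of 4 collagen IV probe sets tested. Among 10 laminin probe sets 4 were lower: Lama4, the alpha chain of vascular and fat cell basement membranes (−1.45 ± 0.35, adjusted p = 0.000751), Lama2, the alpha chain of muscle and nerve (−1.29, adjusted p = 0.00166), Lamb3 (−1.16, adjusted p = 0.00203) and 1 of 2 probe sets of Lamb1 (162263_f_at, −1.25). The brighter Lamb1 probe set 101948_at gave −0.52 (adjusted p = 0.171). Col15a1 and Col18a1, the multiplexins that link basement membranes to the tissue around them, were lower by −2.31 ± 0.41 (adjusted p = 1.51e-05) and −1.27 ± 0.32 (adjusted p = 0.00130), and 5 of 7 probe sets of the transmembrane and multiplexin group were lower.

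The elastic fibre group had 1 call among 5 probe sets. Fbln2, a fibulin of vessel walls and heart valves, was lower by −1.02 ± 0.37 (adjusted p = 0.0200), close to the threshold, and it fell under it when any 1 of 8 tissues was left out, such as heart (−0.76) or white adipose tissue (−0.79). Of the secreted proteases, Mmp12, the macrophage elastase, was lower by −1.20 ± 0.28 (adjusted p = 0.000423). With a floor at the 40th percentile the difference was −0.74, without thymus −0.98, and without white adipose tissue −0.99, each under 2-fold. The other Mmp12 probe set, 95338_s_at, gave −0.86 (adjusted p = 0.000101), which is under 2-fold, and was not called.

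Of the 58 member probe sets, 3 were higher in neural tissue, and each belonged to a different role. Timp2, an inhibitor that also takes part in activating Mmp2 on the cell surface, was higher by 1.99 ± 0.36 (adjusted p = 2.17e-05; mean 8.78 in neural and 6.79 in body tissue). Its 4 choroid plexus arrays gave 801, 1139, 1151 and 1350, its liver arrays 38.8 in C3H, 52.8 in 129, 64.3 in AJ, 12.1 in DBA and 58.0 in B6, and its cerebellum arrays had a median of 93.6. White adipose tissue (406 to 568) lay above cerebellum, retina and pituitary, so the neural and body ranges of Timp2 overlapped. Col19a1, a fibril-associated collagen found at synapses in the brain, was higher by 1.77 ± 0.32 (adjusted p = 1.75e-05). Mmp17, a metalloprotease tethered to the membrane by a lipid anchor, was higher by 1.57 ± 0.33 (adjusted p = 0.000169). Col9a3 (0.81, adjusted p = 0.00467) and Col9a2 (0.62, adjusted p = 1.85e-05), chains of the collagen on the surface of cartilage fibrils, passed the p threshold with less than 2-fold. The other inhibitors did not pass: Timp1 differed by −0.01 (adjusted p = 0.980) and Timp3 by −0.61 (adjusted p = 0.0995).

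**Figure D2:**
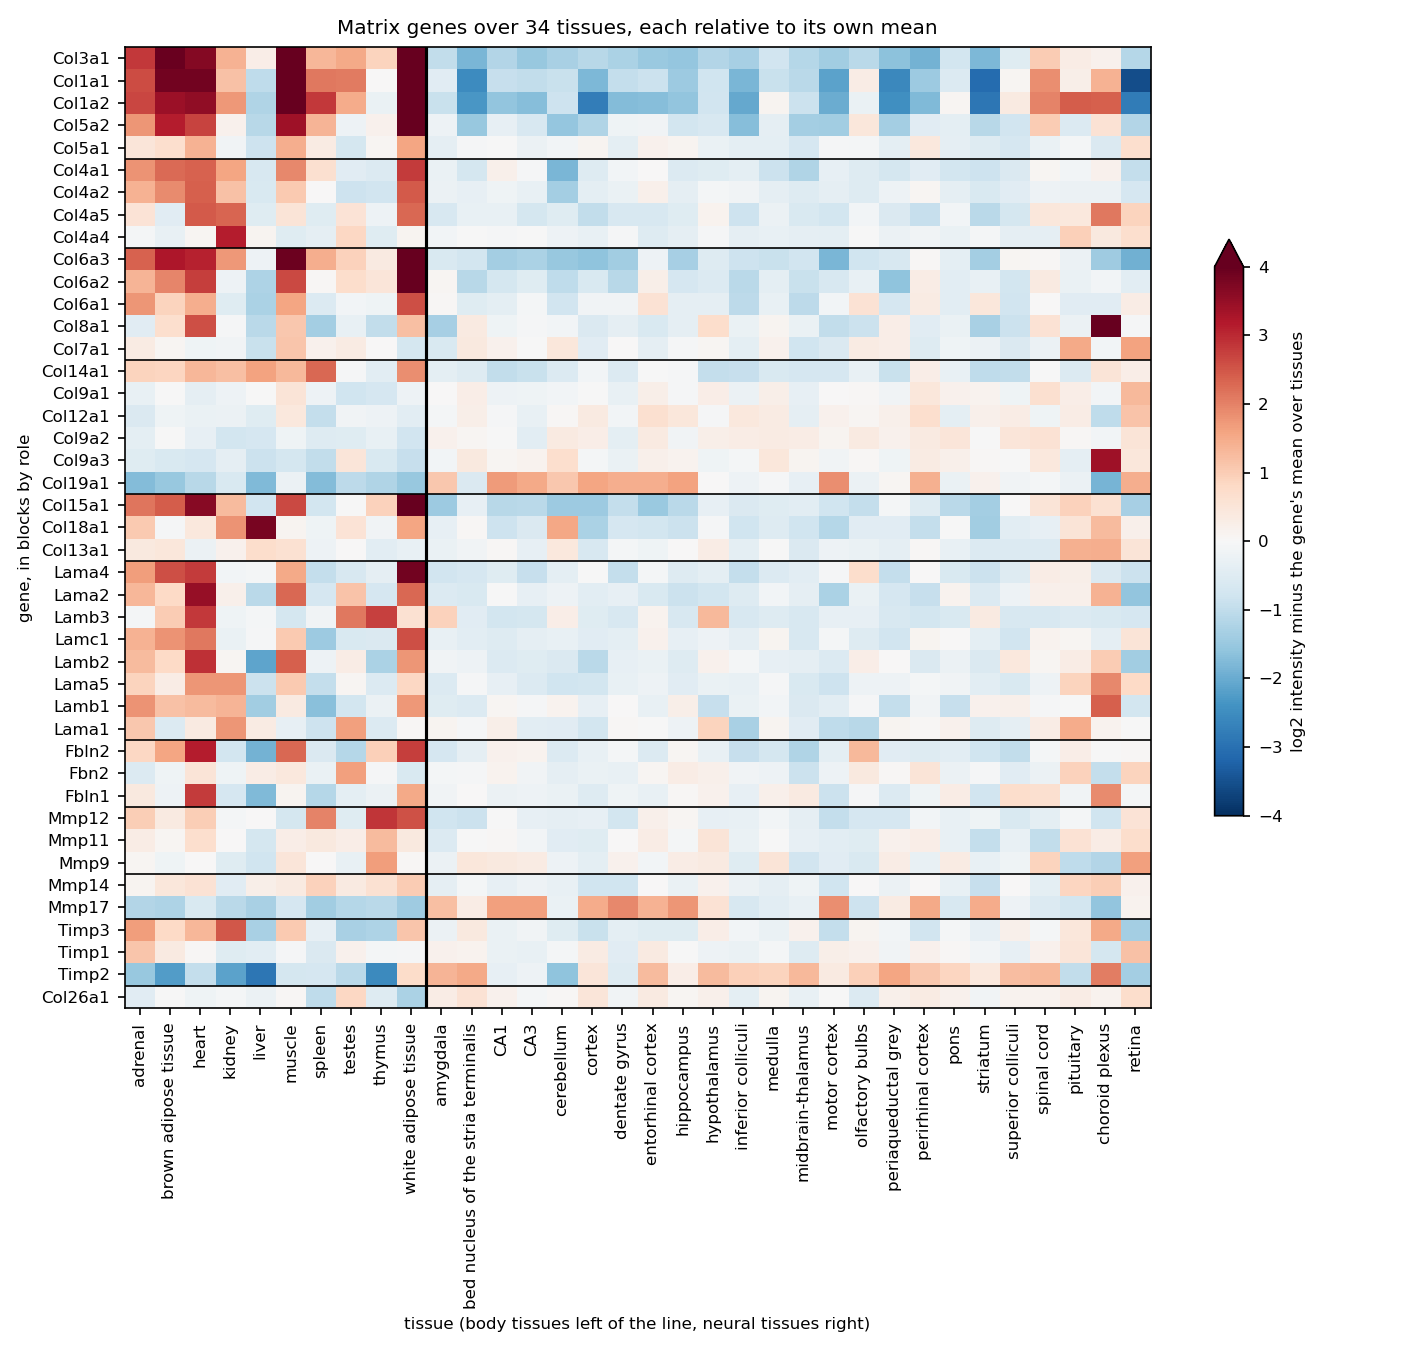
Mean log2 intensity of each of the 43 member genes tested, per tissue, relative to the mean of that gene over the 34 tissues; rows are genes grouped by role, columns are tissues with body tissues on the left, and the colour scale ends at −4 and 4. White adipose tissue, heart and muscle are red across the fibrillar and network collagens, choroid plexus stands out among the neural columns, and Timp2, Col19a1 and Mmp17 run the other way.

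Genes outside the members were counted by list. Of 14 tested genes of the list of other interstitial matrix proteins, 8 were lower in neural tissue, led by Postn, Dcn, Mfap5 and Bgn, and 1 was higher, Vtn, with a median of −1.42. Of 8 other basement membrane genes, 5 were lower (among them Nid1, Smoc2, Tinagl1 and Nid2) and Sparcl1 and Agrn were higher. Of 10 genes for collagen processing, 2 were lower, Pcolce and Serpinh1. The 5 tested genes of the brain matrix list had 3 calls, all higher: Bcan, Reln and Ncan, with a median of 1.65. Among 10 receptor genes, Itgb1 and Itga6 were lower and Ddr1, a collagen receptor kinase, was higher. Markers of cells moved with these groups: 5 of 7 fibroblast markers, 5 of 7 smooth muscle and pericyte markers, 4 of 9 endothelial markers and 3 of 8 macrophage markers were lower in neural tissue, and the fibroblast list overlaps the interstitial list in Dcn, Lum and Mfap5. Their part in the matrix differences was not tested.

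Among the 10 body tissues, white adipose tissue and heart held the most matrix calls on the high side and liver the most on the low side. The contrast set a tissue against the average of the remaining 9, adjusted for strain over the 50 arrays, and 54 member probe sets (40 genes) were tested. In white adipose tissue 32 of them were higher and 1 lower, against 11.1% and 9.03% of all 8921 probe sets. By role these were 9 of 10 probe sets of fibril-forming collagens, 5 of 6 of the network collagens, 3 of 4 of collagen IV, 6 of 10 laminins and 3 of 5 elastic fibre probe sets.

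**Figure D3:**
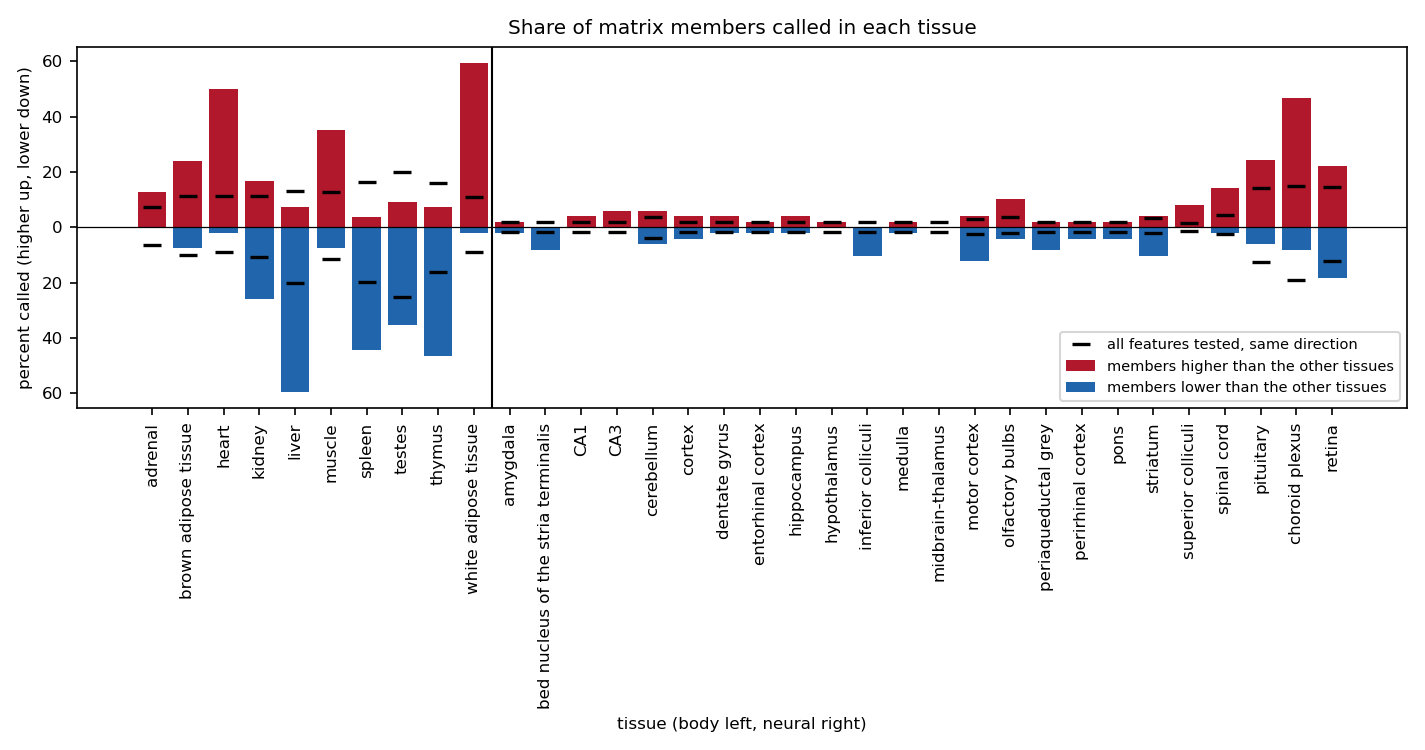
Percent of member probe sets called higher (bars up) or lower (bars down) in each tissue than in the other tissues of its system; horizontal ticks give the same percent over all probe sets tested. White adipose tissue (32 of 54 higher) and liver (32 of 54 lower) have the tallest bars. Most brain parts have short bars, but some pass their ticks, such as motor cortex (12.2% lower against 2.25%) and inferior colliculi (10.2% lower against the pooled 1.55%).

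The white adipose calls were led by Col15a1 (3.50 ± 0.26, adjusted p = 4.81e-15), with intensities of 1657 in AJ, 987 in B6, 1605 in 129, 1448 in DBA and 1320 in C3H. Lama4 followed (3.15 ± 0.19, adjusted p = 7.27e-18), with 843 in AJ, 640 in B6, 844 in 129, 655 in DBA and 576 in C3H, and no array of another tissue reached these values. Col5a2 was higher by 3.05 ± 0.28 and Col6a2 by 3.04 ± 0.19. Timp2 was higher by 2.37 ± 0.27 (adjusted p = 5.45e-10), the top call among inhibitors, and Mmp12 by 1.90 ± 0.41, with a spread between strains from 35.5 in AJ to 318 in DBA. The single member below the other tissues was Col26a1 (−1.10), which was under 2-fold after quantile normalisation (−0.97) and with a floor at the 40th percentile (−0.69). In the same arrays 8 of 8 macrophage, 5 of 7 fibroblast, 5 of 9 endothelial and 5 of 7 smooth muscle markers were higher, with list means per array of 8.57 to 8.92 for macrophages and 7.47 to 9.47 for smooth muscle. Of 4 epithelial markers, Krt18 and Krt8 were higher too, and that list averaged 7.54 in B6, 7.41 in C3H, 6.75 in DBA, 5.84 in 129 and 4.82 in AJ. How far these cells account for the matrix levels was not tested.

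Brown adipose tissue showed a smaller set, 13 higher and 4 lower (11.4% and 9.84% of all). Col5a2 (1.74 ± 0.28), Lama4 (1.72 ± 0.19), Col3a1 (1.56 ± 0.25) and Col1a1 (1.51 ± 0.29) were higher. Col4a5 (−1.29 ± 0.20) and Col18a1 (−1.04 ± 0.13) were lower. With a floor at the 40th percentile Col4a5 gave −0.54, and Col18a1 gave −0.89 after quantile normalisation and was also under 2-fold without the C3H array of brown fat. All 3 probe sets of Col3a1 were called here.

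Heart had 27 higher and 1 lower (11.3% and 8.78% of all), with basement membrane and elastic fibre genes in front. Fbln1, a fibulin of valves and elastic tissue, was 3.06 ± 0.19 above the other tissues (adjusted p = 6.20e-18), with 1387 in C3H, 2062 in AJ, 1150 in 129, 1031 in B6 and 1065 in DBA against a liver range of 41.4 to 132. Lama2 (2.86 ± 0.17, adjusted p = 2.32e-18) gave 516 in C3H, 281 in AJ, 586 in 129, 418 in B6 and 420 in DBA. The synaptic and muscle laminin chain Lamb2 was higher by 2.60 ± 0.19, Col8a1, a collagen of vessel walls, by 2.73 ± 0.23, and Fbln2 by 2.71 ± 0.24. In all, 7 of 10 laminin probe sets and 4 of 5 elastic fibre probe sets were higher, against 0 of 4 probe sets for secreted proteases. The dim Col18a1 probe set 101882_s_at was the single lower call (adjusted p = 4.22e-08). Fibroblast (6 of 7) and endothelial (7 of 9) markers were also higher in heart, and their part was not tested.

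Muscle had 19 higher and 4 lower (12.9% and 11.5% of all), and interstitial collagens led. Col1a1 was 3.56 ± 0.29 above the other tissues (adjusted p = 3.69e-14), Col1a2 2.88 ± 0.27, Col3a1 2.23 ± 0.25 and Col5a2 2.04 ± 0.28. All 6 network collagen probe sets and 9 of 10 fibril-forming ones were higher, and 0 of 4 for collagen IV. Lama2 (1.53 ± 0.17) and Lamb2 (2.00 ± 0.19), chains of the muscle basement membrane, were higher too. Mmp12 (−1.73) and Lamb3 (−1.69) were lower, and both differences shrank under a floor at the 40th percentile (−0.74 and −0.64). Of 7 fibroblast markers 5 were higher in muscle and Tcf21 was lower, with a list mean of 7.86 (7.65 to 8.13 over the arrays), and 2 of 7 smooth muscle markers were higher (Des and Rgs5), with a mean of 7.35. Some muscle arrays also held transcripts of other cells. Of 7 neutrophil markers 4 were higher (Mpo, Ngp, S100a9 and Camp), with a list mean of 8.25 in B6, 7.60 in DBA and 4.27 to 4.47 in the other strains, and the cartilage genes Chad and Acan were higher as well. Their part in the collagen values was not tested.

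Liver was the opposite, with 32 lower and 4 higher (20.2% and 13.2% of all), and all 4 higher calls were probe sets of Col18a1. The brightest, 99638_at, was 3.23 ± 0.13 above the other tissues (adjusted p = 2.82e-24). Its liver intensities were 1710 in C3H, 1184 in 129, 1856 in AJ, 2123 in DBA and 1098 in B6, while kidney, the next tissue, gave 352 to 403. No array of another tissue overlapped with liver. The other probe sets differed by 5.70 (101882_s_at), 4.50 (101881_g_at) and 3.59 (162483_f_at). Col18a1 encodes the collagen that yields endostatin, and its downstream start is known to be used in liver, but the probe sets were not placed on its transcripts here. Col1a2 (−3.96 ± 0.27) and Col1a1 (−3.89 ± 0.29) were the lowest members in liver. Col1a1 gave 45.4 in C3H, 18.6 in 129, 28.8 in AJ, 57.2 in DBA and 219 in B6, so that the B6 array stood above the rest. All 6 network collagen probe sets, 9 of 10 fibril-forming probe sets and 7 of 10 laminins were lower, Lamb2 by −3.00 ± 0.19. Of 7 smooth muscle markers 6 were lower in liver too.

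Kidney had 9 higher and 14 lower (11.4% and 10.5% of all), and 6 of the higher ones were collagen IV or laminin chains. Col4a4, a chain of the collagen IV network of the glomerular filter, was 3.20 ± 0.19 above the other tissues (adjusted p = 1.02e-18), with 84.7 in AJ, 172 in DBA, 118 in C3H, 148 in 129 and 128 in B6. Its partner Col4a5 was higher by 1.79 ± 0.20, and Col4a3, the remaining chain, was too dim to test and reached 52.8 in 129. The highest tissue mean of Col4a5 was in heart (6.73 on the log2 scale) and not in kidney. Timp3, the inhibitor that binds to matrix, was higher by 2.27 ± 0.12 (adjusted p = 8.33e-21), with 3768 in AJ, 3111 in DBA, 3614 in C3H, 3804 in 129 and 3096 in B6. No other tissue overlapped with these Timp3 values. Lama1, the laminin chain of tubular basement membranes, was higher by 1.64 ± 0.25, although its B6 array (44.3) lay under the others (95.8 to 130). Lama5 was higher by 1.47 ± 0.17. Fbln2 (−1.61 ± 0.24) and Col6a2 (−1.60 ± 0.19) were lower, and 6 of 10 fibril-forming probe sets were.

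**Figure D4:**
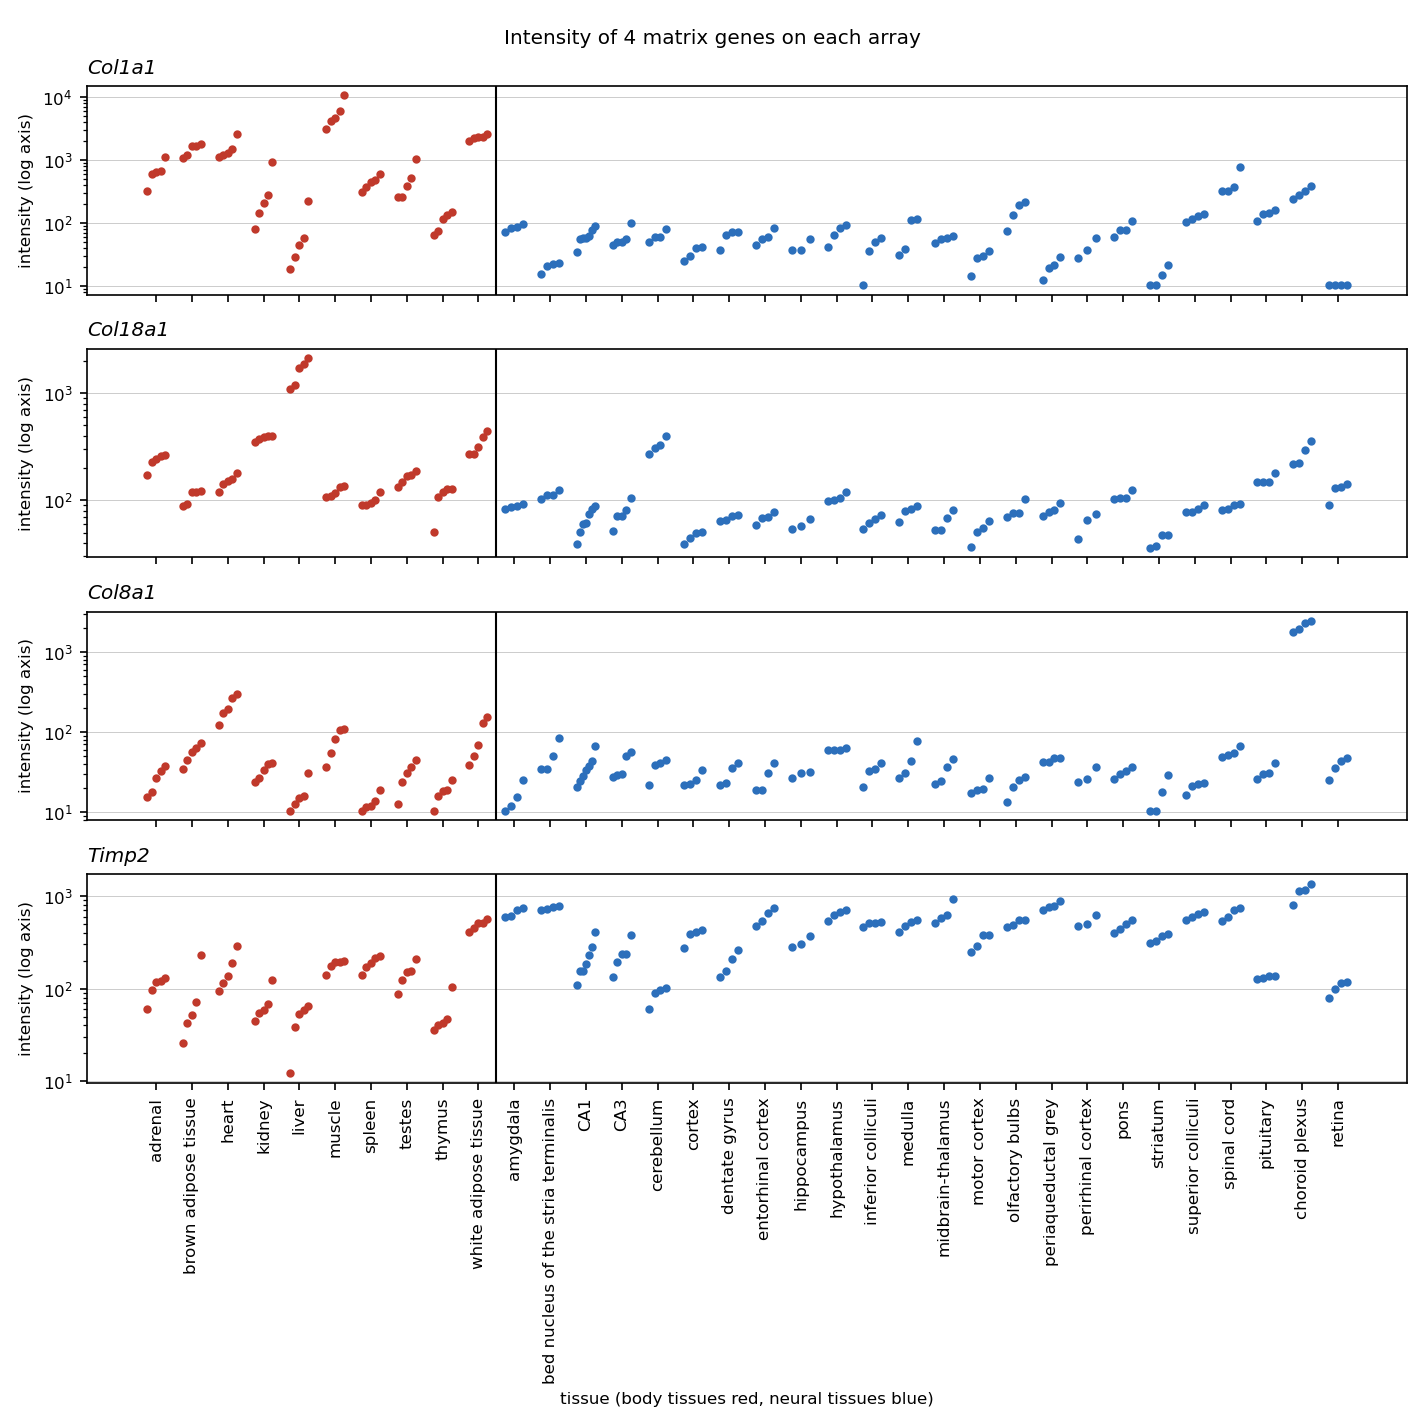
Intensity on each array (log axis, values under 10.4 drawn at 10.4) of Col1a1, Col18a1, Col8a1 and Timp2, with 1 column per tissue and 1 point per array. Liver stands alone for Col18a1 (1098 to 2123), choroid plexus for Col8a1 (1779 to 2428), and all 4 retina arrays are at the floor for Col1a1.

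Thymus and spleen, the lymphoid organs, had more members lower than higher. Thymus had 25 lower and 4 higher (16.0% and 15.9% of all). The higher ones included 3 of 4 secreted protease probe sets: Mmp12 (2.24 ± 0.41), Mmp9, gelatinase B (1.79 ± 0.30), and Mmp11, stromelysin-3 (1.08 ± 0.26). The other Mmp12 probe set, 95338_s_at, was not among the higher calls in thymus or in spleen. Mmp9 in thymus gave 71.8 in AJ, 87.1 in 129, 102 in B6, 85.9 in C3H and 66.3 in DBA. Mmp11 was 21.0 in AJ and 68.3 to 112 in the others, and its call was lost without the 129, B6 or DBA array of thymus, with a floor at the 40th percentile (0.94) or after quantile normalisation (0.98). Lamb3, a chain of epithelial laminin, was higher by 2.15 ± 0.32. Col1a2 (−2.92 ± 0.27) and Col1a1 (−2.74 ± 0.29) were lower, and 8 of 9 endothelial markers were lower in the same arrays. Of 4 epithelial markers, Krt18 and Krt8 were higher in thymus (list mean 7.85, arrays 7.48 to 8.38), as were 3 of 7 neutrophil markers (5.56) and 3 of 8 macrophage markers (7.66), with Mrc1 lower. Their part in the protease and Lamb3 calls was not tested. Spleen had 24 lower and 2 higher (19.8% and 16.3% of all): Col14a1, a collagen on the surface of fibrils (1.35 ± 0.23), and Mmp12 (1.28 ± 0.41, or 0.64 with a floor at the 40th percentile). Col15a1 (−2.63 ± 0.26) and Lamb1 (−2.27 ± 0.16) were lowest. In spleen 8 of 8 macrophage and 6 of 7 neutrophil markers were higher, and their part in Mmp12 was not tested.

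Testes had 5 higher and 19 lower (20.0% and 25.1% of all). Fbn2, a fibrillin best known from development, was 1.71 ± 0.17 above the other tissues (adjusted p = 4.20e-12), with 95.5 in AJ, 77.5 in C3H, 105 in 129, 82.0 in B6 and 112 in DBA. Lama1 (1.49 ± 0.25), Lamb3 (1.45 ± 0.32, or 0.66 with a floor at the 40th percentile), Col26a1 (1.24 ± 0.19) and Col9a3 (1.18 ± 0.14) were higher too. Col26a1 was first described in testis and ovary. Fbln2 (−2.06 ± 0.24) and Col5a2 (−1.98 ± 0.28) were lower. Adrenal had 7 higher and 0 lower (7.52% and 6.50% of all): Lamb1 (1.61 ± 0.16), Timp3 (1.39 ± 0.12), Col6a1 (1.34 ± 0.13) and Timp1 (1.24 ± 0.15) were the 4 genes called by their brightest probe set.

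Among the 24 neural tissues, the choroid plexus, pituitary and retina had the most members called higher, and spinal cord stood out among parts of the central nervous system for fibrillar collagen. Here a tissue was set against the average of the remaining 23, with 49 member probe sets (38 genes) tested. There were 87 higher and 57 lower calls over the 24 tissues, and 20 lower calls with a floor at the 40th percentile. The shares over all probe sets are given with the tissues below, and none was taken at that floor.

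Choroid plexus, the vascular tissue that secretes cerebrospinal fluid, had 23 higher and 4 lower (15.1% and 19.1% of all 8501 probe sets). Col8a1 was 6.11 ± 0.22 above the other neural tissues (adjusted p = 6.23e-41), with 2300 and 2428 in 129 and 1779 and 1919 in B6. The heart, next in order for Col8a1, gave 121 to 303, so no array of another tissue overlapped. Col9a3 was higher by 3.32 ± 0.12 (adjusted p = 2.55e-41), with 2779 and 3007 in 129 and 2408 and 2829 in B6, and cerebellum, next in order, gave 366 to 447. Col1a2 (3.53 ± 0.30) and Lamb1 (2.66 ± 0.19) followed, Timp3 was higher by 1.77 ± 0.10 and Timp2 by 1.54 ± 0.15. All 6 probe sets of the transmembrane and multiplexin group were higher, but both of Col13a1 passed the filter only through choroid plexus, pituitary or retina. Col19a1 (−2.48 ± 0.13) and Mmp17 (−2.11 ± 0.10) were lower: Mmp17 gave 43.0 and 51.4 in 129 and 58.2 and 47.5 in B6. In the same arrays 4 of 6 fibroblast markers were higher, led by Fap, Lum, Tcf21 and Dcn, as were 4 of 6 markers of meninges and choroid stroma and the epithelial markers Krt18 and Krt8. The list of 4 epithelial markers averaged 6.99 in choroid plexus (6.83 to 7.15), 4.35 in striatum and 4.77 in medulla. The part of these cells was not tested.

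Pituitary had 12 higher and 3 lower (14.3% and 12.5% of all). Col1a2 was 3.59 ± 0.30 above the other neural tissues (adjusted p = 1.23e-18), with 486 and 391 in 129 and 418 and 397 in B6. Col15a1 (1.68 ± 0.23), Lama1 (1.67 ± 0.23) and Col7a1 (1.59 ± 0.18) were higher, as were both probe sets of Col13a1, a transmembrane collagen (1.54 and 2.37). Both Col13a1 probe sets passed the filter only through pituitary, choroid plexus or retina, so these calls are not independent of the filter. Timp2 (−1.63 ± 0.15) and Mmp17 (−1.23 ± 0.10) were lower, and the 4 Timp2 values, 137, 135, 132 and 128, lay close together.

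Retina had 11 higher and 9 lower (14.5% and 12.1% of all). Both Col12a1 probe sets, 92313_at and 92314_at, were tested in neural tissue and had their highest mean in retina. With pituitary, choroid plexus and retina set aside, 92314_at no longer passed the filter. A retina call of either Col12a1 probe set would therefore not be independent of the filter. All its arrays came from B6. Mmp9 was higher by 1.84 ± 0.21 (105, 85.0, 94.7 and 95.7), Col7a1 by 1.73 ± 0.18 and Col9a1, a collagen of the vitreous and of cartilage, by 1.29 ± 0.15. Col4a5 was higher by 1.28 ± 0.20, which shrank to 0.81 after quantile normalisation and to 0.16 with a floor at the 40th percentile. The highest neural tissue mean of Col4a5 was 6.38 on the log2 scale, above all retina arrays (5.10 to 5.63). Timp1 was higher by 1.25 ± 0.13, with 390, 357, 311 and 396. Col1a1 (−2.49 ± 0.25) and Timp2 (−2.06 ± 0.16) were lower. Since Col1a1 was under the floor on all 4 arrays, the size of its difference depends on the floor, and it was −0.98 with the floor at the 40th percentile. Endothelial (5 of 9) and macrophage (4 of 6) markers were lower in the retina arrays.

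Spinal cord had 7 higher and 1 lower (4.33% and 2.20% of all), and 5 of the higher ones were fibril-forming. Col1a2 was higher by 3.12 ± 0.30, with 284 and 285 in 129 and 251 and 440 in B6. Col1a1 was higher by 3.04 ± 0.25 (adjusted p = 4.23e-18), with 325 and 317 in 129 and 378 and 777 in B6. Col3a1 (2.19 ± 0.28) and Col5a2 (1.77 ± 0.23) followed, and Mmp17 was lower (−1.03 ± 0.10), a call that was lost without the first 129 or the second B6 array of the tissue. The fibroblast genes Mfap5 and Dcn and the neutrophil genes S100a8 and Camp, from lists of 7 genes each, were also higher in these arrays. So was Acan, which is on both the cartilage and the brain matrix lists. The cartilage list averaged 4.39 in spinal cord and 4.39 in olfactory bulbs. Matn1 and Matn3 of that list were at the floor on all spinal cord arrays. The list mean of neutrophil markers ran from 4.73 to 5.87 over the spinal cord arrays. Their part in the collagen values was not tested.

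Olfactory bulbs had 5 higher and 2 lower (3.96% and 1.91% of all), with Fbln2 at 1.68 ± 0.15 (218 and 319 in 129, 215 and 183 in B6), Col1a1 at 1.42 ± 0.25, Lama4 at 1.22 ± 0.15 and Col5a2 at 1.17 ± 0.23, and with Mmp17 (−1.31 ± 0.10) and Lama1 (−1.04) lower. The Lama1 call was lost without either 129 array, and with a floor at the 40th percentile Lama1 gave −0.16 and Col5a2 gave 0.66. Superior colliculi had 4 higher and 0 lower (1.44% and 1.45% of all): Col1a2 (1.41 ± 0.30), Col1a1 (1.19 ± 0.25), Col6a3 (1.05 ± 0.23) and the Fbln1 probe set 94307_at. With a floor at the 40th percentile the first 3 of these were 0.88, 0.95 and 0.57. The list of meninges and choroid stroma markers averaged 7.14 in superior colliculi, 7.03 in olfactory bulbs and 6.86 in spinal cord, against 5.71 in striatum and 6.16 in cortex. Its part in these collagen values was not tested.

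Cerebellum had 3 higher and 3 lower (3.71% and 3.74% of all). Col18a1 was higher by 2.01 ± 0.13 (adjusted p = 1.88e-24), with 308 and 403 in 129 and 269 and 331 in B6, and its 3 probe sets tested in neural tissue were all called. Timp2 was lower by −2.31 ± 0.15, with 89.6 and 97.6 in 129, 59.6 on one B6 array and a value just above these on the other. Col4a1 (−1.39 ± 0.12) and Col4a2 (−1.03 ± 0.09) were lower together. Striatum had 2 higher and 5 lower (3.33% and 2.07% of all), with Col1a1 (−2.10 ± 0.25) and Col1a2 (−1.98 ± 0.30, or −0.79 with a floor at the 40th percentile) the lowest. Motor cortex had 2 higher and 6 lower (3.08% and 2.25% of all).

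Mmp17 and Col19a1 were called higher mainly in cortical and hippocampal parts. In motor cortex Col19a1 was 1.36 ± 0.14 above the other neural tissues, with 231 and 247 in DBA and 174 and 187 in B6, and Mmp17 was 1.32 ± 0.11 above, with 494 and 565 in DBA and 455 and 571 in B6. Mmp17 had its largest difference in dentate gyrus (1.54 ± 0.10), with 464 and 606 in 129 and 599 and 598 in B6. It was also called in hippocampus (1.37), CA3 (1.19), CA1 (1.16), cortex (1.10), striatum (1.10) and perirhinal cortex (1.01). Col19a1 was called in CA1 (1.19), hippocampus (1.15), cortex (1.11) and CA3 (1.04). The levels of neighbours in these orders overlapped: Mmp17 ran from 447 to 541 in hippocampus and from 380 to 539 in CA3. Compared with the other parts of brain and cord alone, Mmp17 in CA1 (0.99), cortex (0.93), striatum (0.94) and perirhinal cortex (0.85) and Col19a1 in CA3 (0.93) fell under 2-fold. The Col19a1 calls in hippocampus and CA3 and the Mmp17 call in perirhinal cortex were lost without 1 or another array of the tissue. Mmp17 was lower in inferior colliculi (−1.13) and pons (−1.11). Over the 15 neural tissues not yet given a background, 2.13% of tests were called higher and 1.55% lower for all probe sets, and members had 0 to 3 higher and 0 to 5 lower calls in each of them.

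The tissue patterns of 9 pairs of members were compared, chosen for a known partnership or a shared pattern. Over the 34 tissue means, Pearson's r was 0.958 for Col1a1 and Col1a2 (0.891 within the neural and 0.974 within the body tissues), and 0.951 for Col4a1 and Col4a2 (0.767 and 0.979). It was 0.935 for Col1a1 and Col3a1, 0.912 for Col3a1 and Col5a2, 0.898 for Lama2 and Lamb2, and 0.882 for Col6a1 and Col6a2. Col15a1 and Lama4 had 0.861 overall and 0.935 in body tissue but 0.221 within neural tissue, where both were dim in most parts. Mmp17 and Col19a1, which do not assemble with each other, had 0.897 (0.840 and 0.729), and the inhibitors Timp2 and Timp3 had 0.0325. The chains of collagen IX were not among the pairs, and their highest means lay in different tissues: retina for Col9a1, spinal cord for Col9a2 and choroid plexus for Col9a3. These values are descriptions, since the tissues share arrays between genes, and a difference between neural and body tissue raises any r taken over both.

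By strain, 10 of the 54 member probe sets differed between the 5 strains in body tissues, against 8.53% of all 8921 probe sets. The test was limma's F test with tissue as a term, called at an adjusted p under 0.05 and a range of at least 1.5-fold. They were both probe sets of Col1a1 and 2 of Col3a1, both of Lama5, and 1 each of Mmp9, Mmp14, Mmp17 and Fbln1. B6 was the highest strain in 8 of the 10 (44.7% of all called probe sets) and AJ the lowest in 7 (39.8%). Over all 54 members, called or not, B6 was highest in 34 (32.3% of all probe sets) and AJ lowest in 28 (31.6%).

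Both probe sets of Col1a1 and 2 of 3 of Col3a1 differed between strains and were highest in B6, while the other 6 of the 10 fibril-forming probe sets did not pass, among them both of Col1a2 (adjusted p = 0.513 and 0.119) and Col5a2 (adjusted p = 0.442). The strain means of Col1a1 (94305_at) over the 10 tissues were 9.94 in B6, 8.92 in 129, 8.91 in AJ, 8.90 in C3H and 9.03 in DBA on the log2 scale, a range of 1.04 (adjusted p = 0.0188). In kidney its intensity was 924 in B6 and 275 in 129, 209 in C3H, 142 in DBA and 79.7 in AJ. In liver it was 219 in B6 and 57.2 at most elsewhere, and in muscle 10516 in B6 and 3099 to 5957 elsewhere. Col3a1 showed the same arrays: 98331_at gave 476 in B6 kidney against 73.3 to 169, and 270 in B6 liver against 26.7 to 82.0, while in muscle B6 (1846) did not stand apart from 129 (1858). Col3a1 161984_f_at had the largest range, 1.49 (adjusted p = 0.000299), with 103 in B6 kidney against 13.2 to 30.6 and 84.6 in B6 liver against 7.46 to 15.2. AJ was below B6 in 9 of 10 tissues for this probe set and in 8 of 10 for Col1a1.

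Without the B6 arrays of kidney and liver, a choice made after seeing these values, 2 of 54 probe sets were called by the F test: Col3a1 161984_f_at (range 1.13, adjusted p = 0.00518) and Fbln1 94307_at (1.46, adjusted p = 5.20e-05). Col1a1 94305_at then had a range of 0.64 (adjusted p = 0.265) and Col3a1 98331_at of 0.54 (adjusted p = 0.321). Leaving out a single array or tissue gave 4 to 13 calls: 5 without the B6 liver array, 6 without the B6 kidney array, 4 without the kidney, 4 without the testes and 13 without the B6 array of white adipose tissue. The share over all probe sets was not taken in these settings, so a change in calls cannot be read as particular to the members. With each tissue holding 1 array per strain, a strain difference confined to some tissues and a single array that stands apart cannot be told apart.

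Other lists moved with these arrays. In kidney, the list of other interstitial matrix genes averaged 6.62 in B6 and 5.76 to 6.16 in the other strains, other basement membrane genes 6.93 and 5.92 to 6.55, smooth muscle markers 6.30 and 5.67 to 5.87, fibroblast markers 6.40 and 5.74 to 6.12, and neutrophil markers 4.82 and 4.00 to 4.35. In liver, the interstitial list averaged 6.73 in B6 and 6.07 to 6.26 in the others, smooth muscle markers 4.89 and 4.34 to 4.47, and epithelial markers 7.60 and 6.99 to 7.18. The B6 muscle array had a neutrophil mean of 8.25. Over the 10 tissues the fibroblast list averaged 6.89 in B6 and 6.69 to 6.76 in the others, and the smooth muscle list 6.81 in B6 and 6.32 in AJ. The median array intensity was 52.9 in B6 and 45.6 in AJ, and 19.7% and 23.8% of values were at the floor. The part of these in the collagen differences was not tested.

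**Figure D5:**
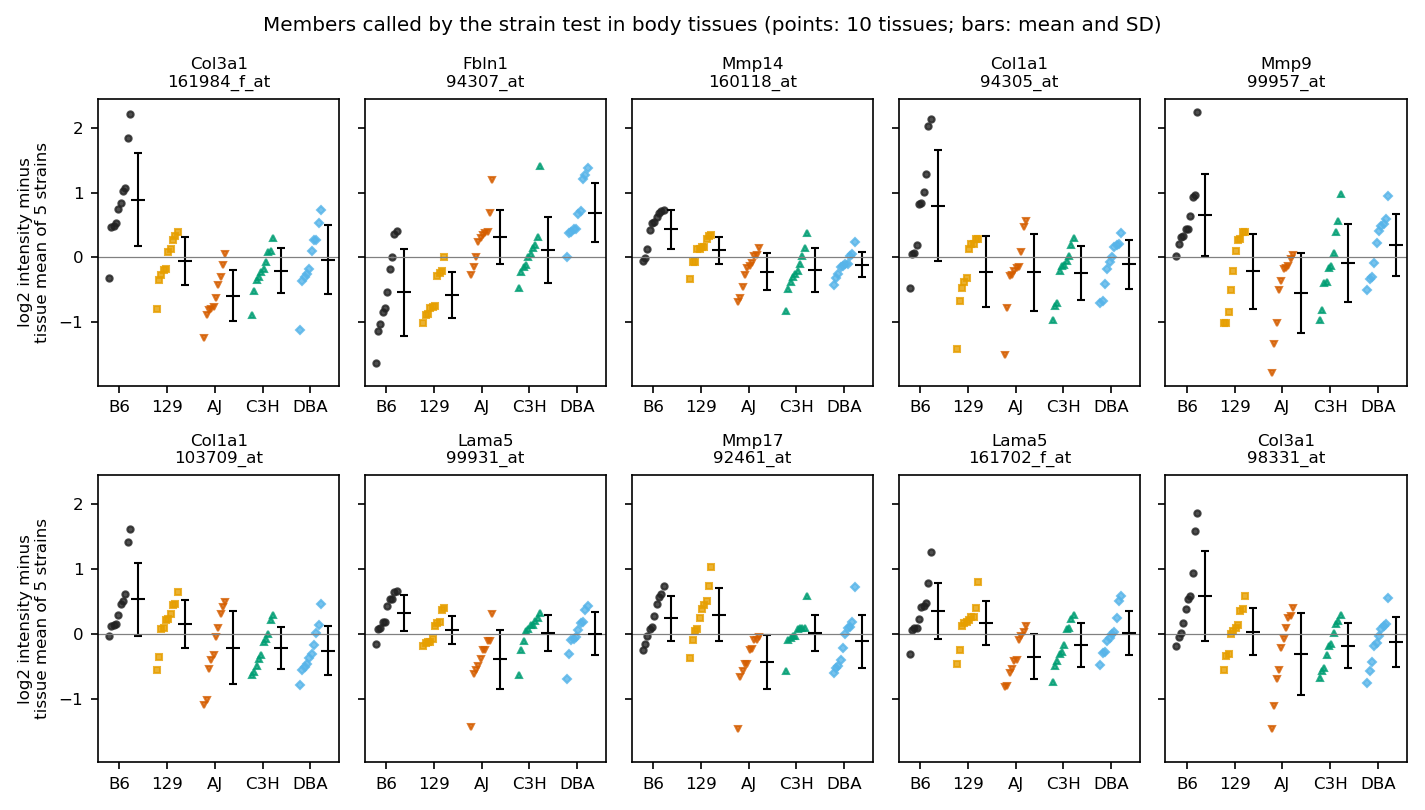
The 10 member probe sets that differed between strains: log2 intensity of each array minus the mean of its tissue over the 5 strains, with 1 point per tissue and bars for mean and SD (n = 10 tissues). B6 has the highest mean for the collagens, Mmp9, Mmp14 and Lama5, DBA for Fbln1 and 129 for Mmp17, and AJ is lowest for 7 probe sets.

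Mmp14, Mmp9, Mmp17 and both Lama5 probe sets were lowest in AJ. Mmp14, the membrane protease that activates Mmp2, had a strain mean of 7.67 in B6, 7.34 in 129, 7.12 in DBA, 7.03 in C3H and 7.01 in AJ (range 0.65, adjusted p = 0.00180). After quantile normalisation and without the B6 kidney and liver arrays its range was 0.58, just under 1.5-fold. Mmp9 was lower in AJ than in B6 in 10 of 10 tissues (−1.20 ± 0.28, adjusted p = 0.00369). Its muscle values were 170 in B6, 51.3 in DBA, 32.6 in C3H, 20.0 in 129 and 9.71 in AJ, its F test was lost without the B6 muscle array and without the kidney or the testes, and with a floor at the 40th percentile the difference was −0.36. Over the 10 body tissues the neutrophil list averaged 5.30 in B6 and 4.44 in AJ, and it was 8.25 on the B6 muscle array; its part in Mmp9 was not tested. Lama5, a laminin chain of adult epithelia and vessels, was lower in AJ in 10 of 10 tissues for 99931_at (−0.71 ± 0.16, adjusted p = 0.00287). Its testis value was 23.9 in AJ against 71.6 to 94.8, and the call was lost without that array. Mmp17 was lower in AJ than in B6 in 8 of 10 tissues (−0.67 ± 0.19, adjusted p = 0.0134), and its highest strain was 129. With quantile normalisation 5 of 54 were called by the F test; the ranges of Mmp9 (0.99), Mmp17 (0.61) and both Lama5 probe sets (0.51 and 0.47) no longer passed.

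Among the called probe sets, 94307_at of Fbln1 was the exception in direction. This probe set was highest in DBA and lowest in 129 (range 1.27, adjusted p = 0.000326), and DBA was below B6 in 0 of 10 tissues, with liver at the floor in both. DBA exceeded B6 by 1.23 ± 0.24 (adjusted p = 0.00123) and AJ exceeded B6 by 0.85 ± 0.24 (adjusted p = 0.0145). The AJ call was lost without the heart and with a floor at the 40th percentile (0.50, adjusted p = 0.0635). In heart it gave 781 in AJ, 438 in DBA, 424 in C3H, 186 in 129 and 166 in B6. The brighter Fbln1 probe set 94309_g_at was not called for strain.

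Set against B6 one strain at a time, AJ had 12 lower and 1 higher of 54 members (5.96% and 1.85% of all), 129 had 3 lower and 0 higher (2.30% and 1.28%), C3H had 4 lower and 0 higher (1.11% and 0.572%), and DBA had 2 lower and 1 higher (1.08% and 0.841%). The 4 comparisons share the B6 arrays. The median member difference from B6 was −0.38 in AJ, −0.28 in C3H, −0.26 in DBA and −0.18 in 129, where over all probe sets it was −0.06, −0.04, −0.03 and −0.02. Without the B6 kidney and liver arrays the calls were 6 for AJ, 0 for 129, 0 for C3H and 1 for DBA. No share over all probe sets was taken in that setting.

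In neural tissue no member passed the threshold for 129 against B6. Over 20 tissues, 39 arrays of 129 and 41 of B6, limma called 0 of 47 member probe sets (2.46% of all). Of these, 11 had an adjusted p under 0.05 (23.3% of all probe sets), 14 an unadjusted one, and the largest differences were 0.42 ± 0.09 for Col5a2 (adjusted p = 0.000268) and 0.37 ± 0.06 for Fbln2 (adjusted p = 1.35e-06), both higher in 129. The collagen IV chains were slightly higher in 129, Col4a1 by 0.26 and Col4a2 by 0.17.

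The 129 minus B6 difference itself was compared between body and neural tissue. For 15 of 58 member probe sets it differed at an adjusted p under 0.05, against 16.6% of all. In 14 of the 15 it was more negative in body tissue. The directions over all probe sets were not counted, so this cannot be read as particular to the members. For Col1a1 (94305_at) it was −1.02 in body and 0.03 in neural tissue, for Col3a1 (161984_f_at) −0.95 and −0.01, and for Mmp9 −0.87 and 0.05. Mmp12 (95338_s_at) ran the other way, 0.67 and 0.00. Without the B6 kidney and liver arrays 7 of 58 passed, and leaving out single arrays gave 8 to 17, with 8 without the 129 or the B6 array of liver. These settings too were counted for members only.

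Some members were too dim to test. For 16 genes no probe set passed the filter in the comparison of neural and body tissue: Col2a1, Col4a3, Col10a1, Col11a1, Col11a2, Col17a1, Col22a1, Lama3, Mmp2, Mmp3, Mmp7, Mmp8, Mmp10, Mmp13, Mmp16 and Mmp24. Mmp8 was at the floor on 146 of 148 arrays, Mmp24 on 147 and Col22a1 on 146. Lama3 was highest in kidney (14.4 to 97.0 over 5 arrays) and Mmp16 in cortex (42.5 to 74.6 over 4), and both passed 10.4 there on every array. Mmp16 did pass the filter of the comparison of 129 with B6 in neural tissue (−0.10, adjusted p = 0.608) and of the comparison of that difference with body tissue (0.10, adjusted p = 0.824). Mmp13 reached 115 on the B6 muscle array, with a muscle median of 14.5. By role, 3 of 9 genes of the secreted proteases and 2 of 4 of the membrane-anchored proteases could be tested, against 8 of 9 laminin chains and 4 of 5 genes of collagen IV. A low intensity here is a statement about the probe set, and intensities of different probe sets were not compared with each other.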

How the data were processed

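The deposited values are intensities of 1-colour oligonucleotide arrays, used as deposited. Their 75th percentiles are nearly equal on all arrays; the scanning software and any scaling step are not named in the labels. Per the labels' protocols, about 10 µg of total RNA was extracted with TRIzol and cleaned on RNeasy columns. Some deposited values were below 0 (5.97%). Gene names came from the platform's annotation table: 10833 probe sets had 1 symbol, 396 several and 1193 none, and 66 control probe sets were left out.

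Intensities were floored at the 20th percentile (10.4), and log2 values were fitted with limma 3.58.1 (lmFit and eBayes with trend) in R 4.3.3. Every fit ran on all probe sets that passed the filter, and p-values were adjusted by Benjamini-Hochberg within a contrast. Neural and body tissue were compared on strain-adjusted means of 24 and 10 tissues. Single tissues were compared with strain as a term, and strains with tissue as a term. On simulated data, changes of 2 on the log2 scale were recovered for 100% of 200 changed probe sets in neural against body tissue (7163 tested). Those simulated tissues did not otherwise differ, so this recovery does not measure power under the real spread between tissues. Changes of 1 were recovered for 99.5% in the strain fit and 96.0% for 129 against B6. The changed probe sets were drawn only from those with a mean above 5.73 on the log2 scale.

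The members and the related gene lists were chosen with earlier results of these data known. Values are given in full for up to 6 called members in each direction per comparison, for the top member of each role, for every member called by the strain F test, and for up to 4 members above and 2 below per tissue; other members are given where they complete a group. A gene with several probe sets is described by the one with the highest mean floored intensity, a choice of scale made after the log2 means were seen. With log2 means only Col1a2 would change, and both of its probe sets are given. Alternatives were other floors (10th and 40th percentile), no filter, quantile normalisation, 1 probe set per gene, the title number as a block, and each array or tissue left out. Sequences are from RefSeq, build GRCm38.p6. The number of arrays limits the precision. Figures were drawn with matplotlib 3.10.9.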

Additional observations from a re-analysis of the deposited data

Results flagged for a closer look

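In 6 of 113 groups of 4 to 10 arrays, 1 array lay far from the rest of its tissue, where chance gives about 1 group in 20. Lama1 was 5.47 (log2) in B6 kidney against 6.58 to 7.02 in the other strains, and Col26a1 was 7.01 in C3H testes against 6.56 to 6.67. Mmp17 was 8.86 on the first 129 array of dentate gyrus against 9.22 to 9.24, and Col4a5 was 5.63 on the third B6 array of retina against 5.10 to 5.13. Near the floor, Col1a2 was 3.95 on the first 129 array of cortex where the others were at 3.38, and Lama1 was 4.13 on the first 129 array of inferior colliculi against 3.38 to 3.47.

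The 129 minus B6 difference in log2 intensity differed between body and neural tissue for 15 of 58 member probe sets, against 16.6% of all probe sets (limma's interaction test). The fibrillar collagens differed by −1.05 (Col1a1 94305_at, adjusted p = 0.00379), −0.48 (Col1a1 103709_at, 0.0344), −0.94 (Col3a1 161984_f_at, 2.38e-05), −0.54 (Col1a2 161156_r_at, 0.00275) and −0.78 (Col5a2, 0.0110), body minus neural. For Col5a2 this joined −0.36 in body to 0.42 in neural tissue. Basement membrane and network genes differed by −0.67 (Lamb3, 0.00197), −0.62 and −0.52 (both Lamb1 probe sets, 0.0153 and 0.0283), −0.51 (Lamb2, 0.0180), −0.43 (Col4a1, 0.0396), −0.68 (Col6a1 162459_f_at, 0.00698) and −0.50 (Col6a2, 0.0372). Among proteases Mmp9 differed by −0.92 (0.00252) and Mmp14 by −0.54 (0.00460), and Mmp12 95338_s_at by 0.67 (0.00566). Without the B6 arrays of kidney and liver 7 of the 58 probe sets tested passed, and the share over all probe sets was not taken there.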

How the results depend on the processing

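No called result changed direction under the alternatives that were run; the uncalled 129 minus B6 difference of Fbln1 94307_at (−0.04) lay between 0.02 and 0.19 under 4 of them. Of 58 member probe sets tested, 3 stayed called higher in neural tissue and 21 to 27 lower when single tissues were left out, and calls over body tissues ran from 119 to 125 higher and 121 to 126 lower, over neural tissues from 85 to 90 higher and 55 to 60 lower. The strain counts varied more: over single arrays or tissues left out, the F test called 4 to 13, AJ against B6 9 to 16, C3H 1 to 5, DBA 1 to 8, 129 0 to 5 in body and 0 to 0 in neural tissue, and the interaction 8 to 17. With 1 probe set per gene the counts were 16 (lower in neural tissue), 6 (F test), 8 (AJ), 2 (C3H), 0 (DBA) and 9 (interaction), since fewer probe sets are counted. Quantile normalisation gave 5 (F test) and 6 (AJ), and a floor at the 40th percentile gave 8 (AJ) and 20 lower calls over neural tissues, since values near the floor are compressed. Within 21 brain and cord tissues there were 37 higher and 27 lower calls. Without the B6 kidney and liver arrays, chosen after seeing the data, the counts were 2 (F test), 6 (AJ), 0 (129), 0 (C3H), 1 (DBA) and 7 (interaction). The alternatives in this section were counted for members only, with no share over all probe sets. Titles share numbers across tissues, and a replicate block on that number gave 120 higher and 123 lower calls in body tissues, 87 and 57 in neural tissues, and 9 (F test), 12 (AJ), 2 (129), 3 (C3H) and 3 (DBA) for strains. The correlation within a number was 0.0396 in body and 0.157 in neural tissue, and the labels do not say that a number is an animal, so it was not taken as a pairing. Signal over background limits the dim members, 28 of 86 probe sets, which were not tested between neural and body tissue.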
